A study of Mus musculus with 6 samples.

Results

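Protamines and transition proteins are the small basic proteins that replace histones when the spermatid nucleus condenses, and their messenger RNAs were read here on Affymetrix arrays in sorted mouse elongating spermatids. The genes were Prm1, Prm2, Prm3, Tnp1 and Tnp2. All probe sets that the platform annotation gives to exactly 1 of these symbols were taken, which gave 8 probe sets (3 for Prm1, 2 for Tnp1 and 1 each for Prm2, Prm3 and Tnp2) of 45037 on the array, and 5 genes of 18193 with a probe set of their own. All 8 passed the filter on low signal that kept 27022 probe sets. The spermatids came from ICR mice, an outbred strain labelled wildtype, which received GFP-carrying lentivirus in the testis when 5 weeks old. GFP-positive elongating spermatids were sorted from the germ cells 1 week later. The vector carried a short hairpin RNA against Miwi (shMiwi), a short hairpin RNA against Caf1 (shCaf1), or was the pSilencer control. Each group held 2 arrays labelled as biological replicates, 6 in all, and so few arrays bound how precise any value can be. The sources used here do not say how many mice each array stands for, so p-values measure the spread between these arrays.

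In round spermatids the transcription factor CREM switches on protamine and transition protein genes. Their messenger RNAs are then stored for days in ribonucleoprotein particles and translated only in elongating spermatids. Tnp1 and Tnp2 enter chromatin as histones leave, and Prm1 and Prm2 follow and pack the DNA of the sperm head. The stored transcripts carry a long poly(A) tail that is shortened when translation starts. Miwi is the PIWI protein Piwil1, which binds piRNAs, and Caf1 is taken here to be Cnot7, a deadenylase of the CCR4-NOT complex. The comparison addressed whether these late transcripts differ when either factor is targeted.

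Tnp2, Prm3, Prm2 and Prm1 are neighbours in this order on mouse chromosome 16, with no other gene listed between them in RefSeq, while Tnp1 lies on chromosome 1. The 150 bases before each start site are shown because the 5 genes share a stage of expression. Capitals mark 2 motifs searched on both strands, TGANNTCA (the outer letters of the cyclic AMP response element, which CREM binds) and TATAA; no 2 matches overlapped. The motifs were chosen with the sequences in view, and the sequences are from RefSeq, build GRCm38.p6, each on the minus strand.
Prm1, chr16:10796824-10796973: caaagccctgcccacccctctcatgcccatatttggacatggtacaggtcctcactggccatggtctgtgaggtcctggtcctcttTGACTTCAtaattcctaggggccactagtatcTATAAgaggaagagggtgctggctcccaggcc
Prm2, chr16:10792106-10792255: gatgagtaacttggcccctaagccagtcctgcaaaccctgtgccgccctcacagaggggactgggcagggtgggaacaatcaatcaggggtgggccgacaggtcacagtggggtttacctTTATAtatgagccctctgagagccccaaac
Prm3, chr16:10790915-10791064: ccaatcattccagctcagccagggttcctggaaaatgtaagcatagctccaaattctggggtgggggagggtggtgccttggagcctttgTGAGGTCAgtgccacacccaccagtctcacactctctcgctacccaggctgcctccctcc
Tnp1, chr1:73015900-73016049: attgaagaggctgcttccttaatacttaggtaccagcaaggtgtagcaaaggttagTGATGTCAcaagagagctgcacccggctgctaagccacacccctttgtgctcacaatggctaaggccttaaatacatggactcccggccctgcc
Tnp2, chr16:10788656-10788805: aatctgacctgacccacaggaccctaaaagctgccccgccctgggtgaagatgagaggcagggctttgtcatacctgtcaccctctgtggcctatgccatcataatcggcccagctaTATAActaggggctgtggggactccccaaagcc
TGANNTCA stood in the windows of Prm1, Prm3 and Tnp1, 64, 60 and 94 bases upstream at its first letter, and in 8.37% of all 32851 RefSeq windows of this length. TATAA stood in the windows of Prm1, Prm2 (on the opposite strand) and Tnp2, 32, 30 and 33 bases upstream, and in 14.2% of all windows. The full element TGACGTCA was found in 0 of the 5 windows and in 1.36% of all. A match describes these letters and is no evidence of binding.

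The 2 control arrays stood far apart from each other, which touches every comparison with control. The authors scaled each array to a trimmed mean of 500, which enlarges all values of an array whose typical signal is weak. The hybridization controls, labelled RNAs added in fixed amount, stood, relative to their average over the shRNA arrays, at 0.931 and 0.797 in shMiwi, at 1.09 and 1.19 in shCaf1, and at 81.4 and 16.05 in control. Division by these factors is called the hybridization scale, and all other values are as deposited. The hairpins' targets had these signals: for Piwil1, 9780 and 10392 (shMiwi), 21881 and 22442 (shCaf1), and 1445360 and 292542 (control). Cnot7 gave 4365 and 5012 in shMiwi, 3633 and 4330 in shCaf1, and 2003570 and 188877 in control. As deposited, both genes passed limma as lower than control in both shRNA groups, but the Cnot7 value of control replicate 1 is the brightest of that array and these differences did not pass on the hybridization scale. There Piwil1 read 10510 and 13040 in shMiwi, 20154 and 18909 in shCaf1, and 17767 and 18229 in control (log2 difference from control -0.62 in shMiwi and 0.12 in shCaf1, limma adjusted p = 0.758 and 0.954). Cnot7 read 4691 and 6289 in shMiwi, 3346 and 3648 in shCaf1, and 24628 and 11769 in control (-1.65 in shMiwi and -2.28 in shCaf1, limma adjusted p = 0.276 and 0.147). Between shMiwi and shCaf1, Cnot7 differed by 0.24 as deposited (limma adjusted p = 0.307) and by 0.63 on the hybridization scale, where it passed as higher in shMiwi (limma adjusted p = 0.0133).

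Prm1, the protamine found in all mammals, was read by 3 probe sets. Its brightest one on the shRNA arrays (1437054_x_at) gave a signal of 22731 and 22463 in shMiwi, 28335 and 33525 in shCaf1, and 66.1 and 188624 in control. The shMiwi values lay below both shCaf1 values, and the control values lay on either side of all 4 shRNA values. The second Prm1 probe set (1439379_x_at) gave 20690 and 19604 in shMiwi, 24575 and 30133 in shCaf1, and 165.1 and 192355 in control. The third (1415955_x_at) gave 21027 and 17645 in shMiwi, 24784 and 25610 in shCaf1, and 2191 and 193022 in control. Control replicate 1 gave the lowest signal of the 6 arrays on each of the 3 probe sets, although within that array the third one ranked high.

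Prm2, the protamine that is made as a longer precursor and processed, gave a signal of 19903 and 18090 in shMiwi, 26546 and 26216 in shCaf1, and 110.3 and 237281 in control. The replicates of each shRNA group lay close together, and the groups did not overlap. Prm3, which lies between Prm2 and Tnp2 and encodes a protein that is acidic rather than basic and is not known as a chromatin component, gave 6480 and 6555 in shMiwi, 10184 and 12775 in shCaf1, and 139.5 and 31926 in control. As a ratio, this was the widest gap between the means of the shRNA groups among the 8 probe sets.

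Tnp1, the main transition protein, gave a signal of 21905 and 22590 in shMiwi, 27973 and 31156 in shCaf1, and 38.9 and 82532 in control on probe set 1415924_at. Its other probe set (1438632_x_at) gave 848.2 and 1158 in shMiwi, 1189 and 901.5 in shCaf1, and 32.0 and 4175 in control. The shRNA groups overlapped on the dim probe set and not on the bright one. Tnp2, the zinc-binding transition protein, gave 19231 and 14281 in shMiwi, 21623 and 21801 in shCaf1, and 19.6 and 66382 in control. Here the shMiwi replicates lay farther apart than the shCaf1 replicates, with both below shCaf1. Probe sets ending in _x_at or _s_at can take up signal from related transcripts.

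**Figure D1:**
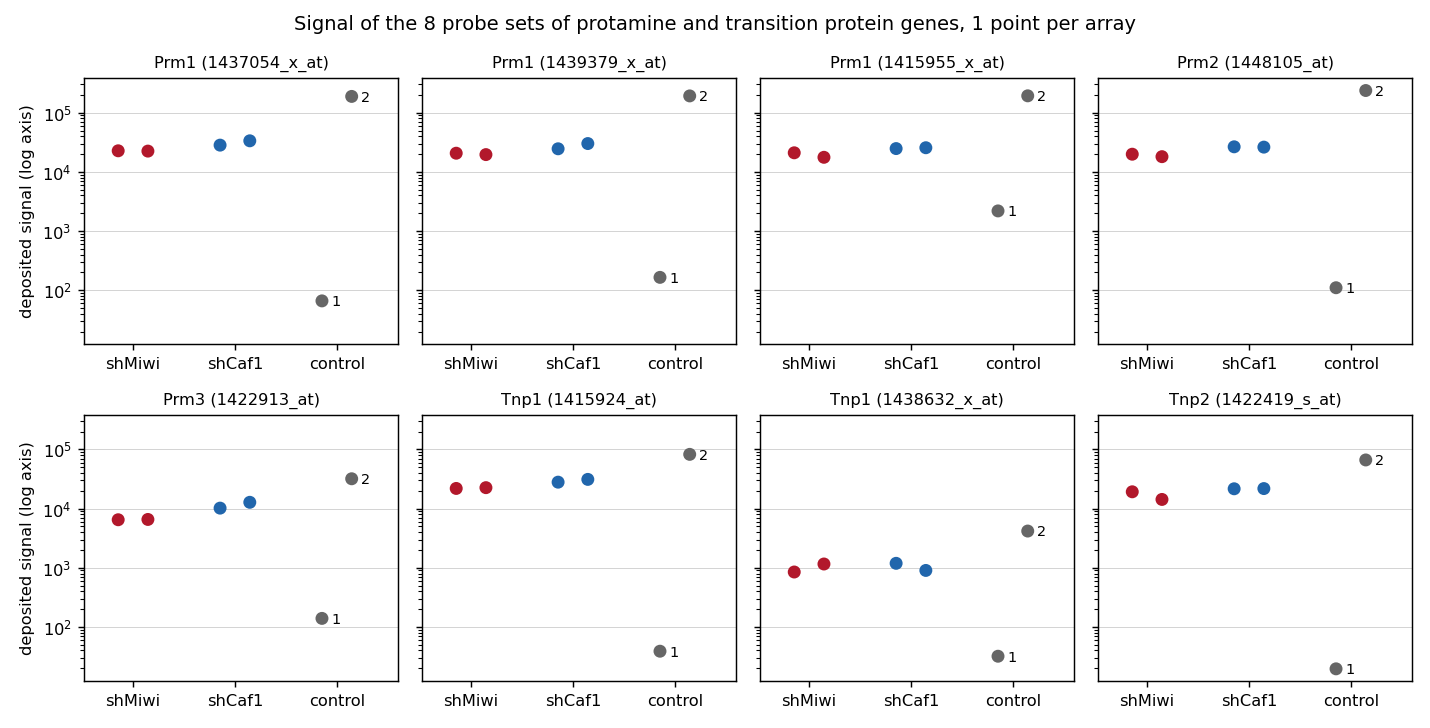
Deposited signal (log axis) of each of the 8 probe sets, 1 point per array, for shMiwi, shCaf1 and control, with the control points numbered by replicate. The shRNA points lie close together between control replicate 1 and control replicate 2 on all 8 probe sets.

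The identity of the sorted cells was read from the rank of these genes within each array, which no scaling of an array changes. The median percentile of the 8 probe sets among all 45037 was 99.92 and 99.88 in shMiwi, 99.96 and 99.95 in shCaf1, and 23.9 and 99.86 in control. The lowest of the 8 on the shRNA arrays was the dim Tnp1 probe set, between 82.1 and 86.4. On control replicate 1 Tnp2 stood at percentile 1.55 and Tnp1 at 9.45 and 6.55, whereas the third Prm1 probe set stood at 96.1. On that array 7 of the 8 probe sets lay between percentiles 1.55 and 37.8, although these messenger RNAs are translated in the labelled cell type. The 20 other elongating spermatid markers had a median percentile of 97.9 and 97.8 in shMiwi, 98.8 and 98.9 in shCaf1, and 61.8 and 97.2 in control. The 10 round spermatid markers had 97.4 and 97.2 in shMiwi, 97.9 and 98.3 in shCaf1, and 20.9 and 86.4 in control. Control replicate 1 was low for both lists.

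Markers of other testis cells were read beside these. The 9 Sertoli cell markers lay at a median percentile of 79.6 and 82.3 in shMiwi, 80.5 and 79.6 in shCaf1, and 70.0 and 79.3 in control. The 5 Leydig cell markers lay at 95.0 and 95.2 in shMiwi, 94.9 and 94.7 in shCaf1, and 56.5 and 86.1 in control. The 10 pachytene spermatocyte markers lay at 95.8 and 96.5 in shMiwi, 95.7 and 96.0 in shCaf1, and 66.3 and 65.4 in control. The Leydig and pachytene lists thus stood nearly as high on the shRNA arrays as the spermatid lists, and the Sertoli list stood lower. The 6 endothelial markers lay at 57.6 and 56.7 in shMiwi, 52.7 and 57.8 in shCaf1, and 62.6 and 69.6 in control. The summed signal of the 5 peritubular myoid markers was 5195 and 4759 in shMiwi, 3937 and 3973 in shCaf1, and 3392 and 6174 in control. In the myoid list 2 of 5 genes passed as higher in shMiwi than in shCaf1, against 3.81% of all probe sets (Myh11, smooth muscle myosin, by a log2 difference of 0.93 and Tagln, a smooth muscle actin-binding protein, by 0.90; limma adjusted p = 0.0182 and 0.0266). Of 9 Sertoli markers Wt1 passed as higher (0.77, limma adjusted p = 0.0183), and of 5 Leydig markers Cyp11a1 passed as higher (0.51, limma adjusted p = 0.0305). None of 7 spermatogonial, 5 macrophage and 5 endothelial markers passed limma between shMiwi and shCaf1 as deposited. On the hybridization scale, where 26.1% of all probe sets passed as higher, 4 of 5 myoid markers (all but Des), 2 Sertoli (Wt1 and Cldn11), 2 Leydig (Cyp11a1 and Cyp17a1), 2 spermatogonial (Zbtb16 and Id4), 2 macrophage (Csf1r and Cd14) and 0 endothelial markers passed as higher. The part of other cells in the values of the protamine and transition protein genes was not tested. In such bulk samples, fewer cells of a type and less RNA per cell cannot be told apart.

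**Figure D2:**
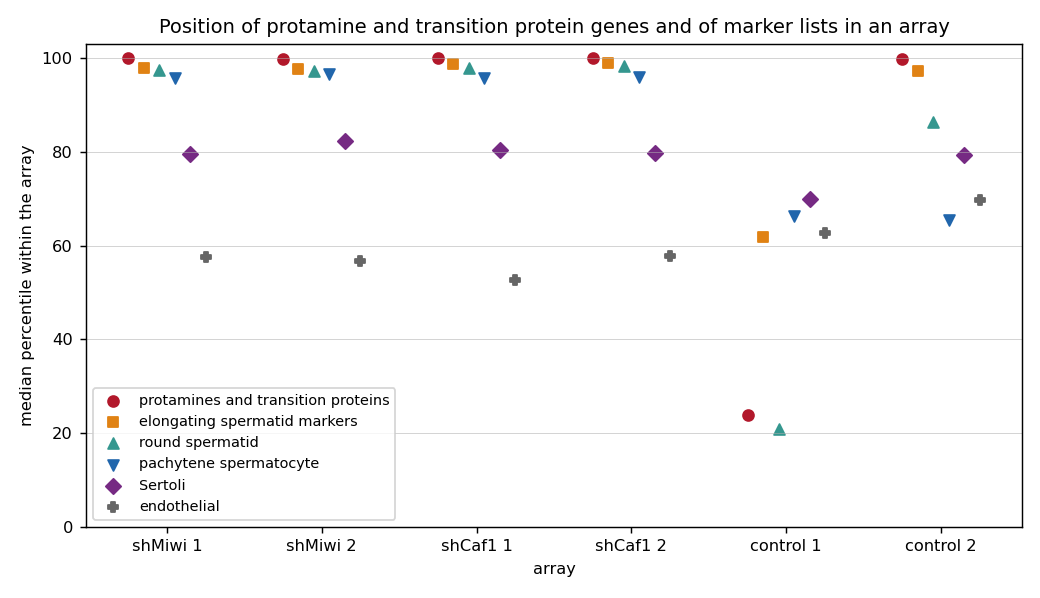
Median percentile among all probe sets of an array (vertical axis) for the 8 protamine and transition protein probe sets and for 5 marker lists on each of the 6 arrays. The median of the 8 probe sets lies between 99.86 and 99.96 on 5 arrays and at 23.9 on control replicate 1.

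The comparison of shMiwi with shCaf1 rests on the 4 shRNA arrays, which lay close together. All 8 probe sets had a negative log2 difference, with a median of -0.42 against 0.02 over all 27022 probe sets, and 4 of the 8 passed limma at an adjusted p under 0.05, where 3.52% of all probe sets passed as lower and 3.81% as higher. Prm3 differed most and was lower in shMiwi than in shCaf1 by 0.81 on the log2 scale (SE 0.12, limma adjusted p = 0.0111, n = 2 per group). Its signal was 42.8% lower. As both are hairpin groups, a decrease in shMiwi and an increase in shCaf1 cannot be told apart. Prm2 fell by 0.48 (SE 0.09, limma adjusted p = 0.0248), and its signal fell by 28.1%. Prm1 was lower by 0.45 on its brightest probe set (SE 0.10, limma adjusted p = 0.0389), and Tnp1 by 0.41 on its bright one (SE 0.09, limma adjusted p = 0.039). The other Prm1 probe sets gave log2 differences of -0.43 and -0.39 and missed the threshold (limma adjusted p = 0.0529 and 0.0623). Tnp2 gave -0.39 (SE 0.14, limma adjusted p = 0.116) and the dim Tnp1 probe set -0.06 (SE 0.19, limma adjusted p = 0.882), which do not show that either was alike in the groups. Tnp2 stood at -0.60 and passed without shMiwi replicate 1 (limma adjusted p = 0.00727), and at -0.17 without shMiwi replicate 2 (limma adjusted p = 0.523). On 7 of the 8 probe sets both shMiwi arrays lay below both shCaf1 arrays, as did 25.3% of all probe sets.

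These calls depended on single arrays, on the scale and on how the spread was estimated. The number of the 8 that passed varied with the array left out. Without shCaf1 replicate 2, Prm3 stood at -0.64, Prm2 at -0.48, and the brightest Prm1 and bright Tnp1 probe sets at -0.33 each. Without shMiwi replicate 2 these 4 stood at -0.81, -0.41, -0.44 and -0.43. Such fits leave 1 array in a group. With no intensity trend in limma 0 of the 8 and 15 of all 27022 passed, and 4 of the 8 and 5487 of all were at an unadjusted p under 0.05. With all 6 arrays in the fit 0 of the 8 and 0 of all passed, and 0 of the 8 and 264 of all were at an unadjusted p under 0.05. On the scale of the hybridization controls the median log2 difference of the 8 was -0.02 against 0.39 over all probe sets. Of the 8, 0 passed limma, where 0.951% of all passed as lower and 26.1% as higher. An unadjusted p under 0.05 was reached by 1 of the 8 and by 10674 of all 27022. There, Prm3 gave 6964 and 8225 in shMiwi and 9380 and 10764 in shCaf1, the single probe set of 8 without overlap (5.53% of all). On that scale Prm3 was lowest at -0.41 (SE 0.18, limma adjusted p = 0.0834), Prm2 stood at -0.08, the bright Tnp1 probe set at -0.01, and Tnp2 at 0.01. With quantile normalization, which gives all arrays the same distribution, Prm3 passed at -0.89 (limma adjusted p = 0.0164), Prm2 missed at -0.48 (adjusted p = 0.202), and the bright Tnp1 probe set stood at -0.13.

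**Figure D3:**
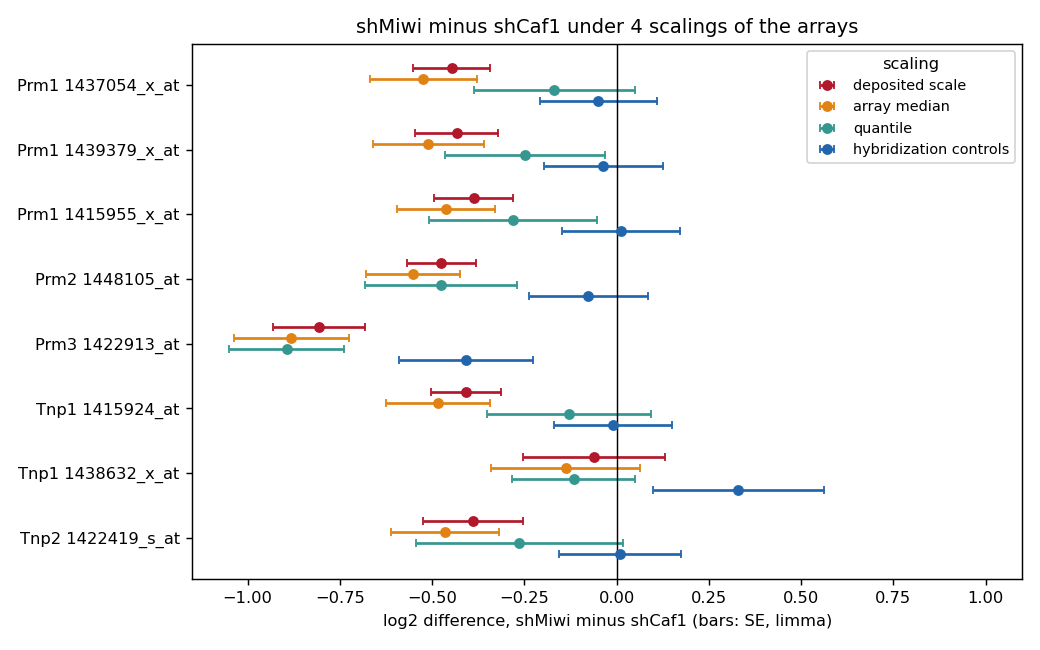
Log2 difference of shMiwi minus shCaf1 for the 8 probe sets under 4 scalings of the arrays, with limma's SE as bars. Prm3 lies below 0 under each of them, whereas the other probe sets lie between -0.08 and 0.33 on the scale of the hybridization controls.

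The brightest probe set of an array read 29985 and 25812 in shMiwi and 34428 and 35696 in shCaf1, so the highest deposited signal was itself lower in shMiwi. On shMiwi replicate 2 and shCaf1 replicate 2 this was Ldhc, a gene of the elongating spermatid list used here. The highest signal is thus not a measure independent of spermatid genes. Prm1, Prm2, Tnp2 and the bright Tnp1 probe set stood between 55.3% and 93.9% of that value on the shRNA arrays, and Prm3 between 21.6% and 35.8%. Whether a ceiling limited these signals, and its part in the size of the differences, was not tested.

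A ratio of genes within an array is free of the array's linear scaling, but not of a ceiling on bright signals. Relative to Prm1, Prm3 stood at log2 values of -1.70 and -1.43 in shMiwi and -1.28 and -1.002 in shCaf1. The mean difference of this ratio was -0.42 with no overlap, as for 5.34% of all other probe sets set against Prm1 in the same way and direction, while replicates differed by 0.27 in shMiwi and 0.28 in shCaf1. This Prm1 probe set stood between 68.4% and 72.0% of the brightest probe set on these arrays, nearer the top than Prm3. The part of this in the ratio was not tested. Relative to Prm1, the mean shift was -0.09 for Prm2, -0.02 for Tnp1 and -0.002 for Tnp2, and these groups overlapped. The height of each ratio reflects the probes as well as the RNA, so only its change between arrays is read. No test was made of these ratios.

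Control replicate 2 gave other ratios. Relative to Prm1, Tnp1 stood at a log2 value of -1.23 there, against 0.06 and 0.36 in shMiwi and 0.17 and 0.28 in shCaf1. Tnp2 stood at -1.54 on control replicate 2, -0.13 and -0.30 in shMiwi, and -0.20 and -0.23 in shCaf1. Prm3 stood at -2.60, below all 4 shRNA arrays, and Prm2 at 0.30, above all 4. On control replicate 2 the Prm1, Tnp1 and Tnp2 probe sets used stood at 49.5%, 21.2% and 17.02% of the brightest probe set. These were lower shares than on any shRNA array, and the part of any ceiling in these ratios was not tested. This rests on 1 control array, since on control replicate 1 7 of the 8 probe sets lay at or below percentile 37.8.

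**Figure D4:**
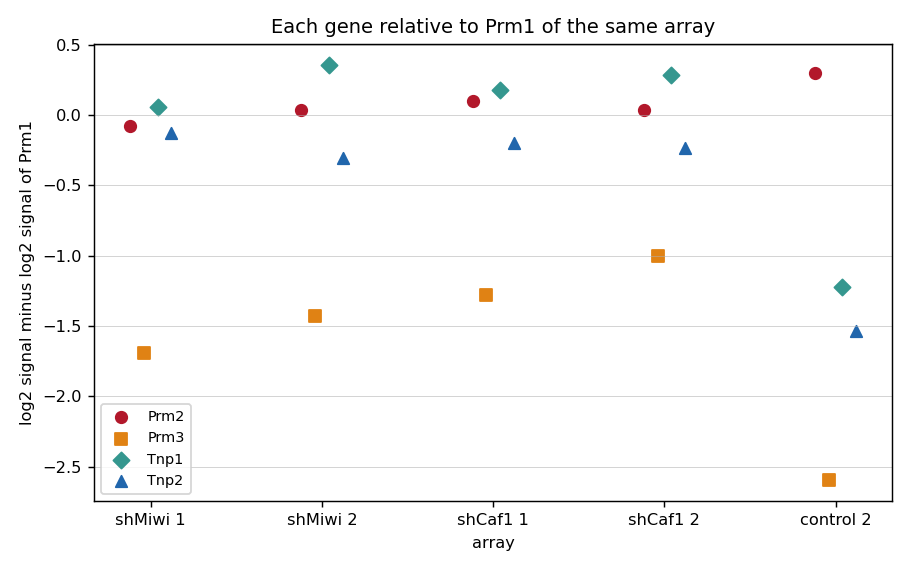
Log2 signal of Prm2, Prm3, Tnp1 and Tnp2 minus the log2 signal of Prm1 on the same array (brightest probe set of each gene), for the 4 shRNA arrays and control replicate 2. Prm3 lies lower in shMiwi than in shCaf1, and Prm3, Tnp1 and Tnp2 lie lowest on control replicate 2.

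Against control, none of the 8 probe sets passed in either shRNA group in limma on all 6 arrays. Of all probe sets 43.2% passed in shMiwi (16.9% higher and 26.4% lower) and 41.5% in shCaf1 (15.5% higher and 26% lower). An unadjusted p under 0.05 was reached by 0 of the 8, and by 14151 of all 27022 in shMiwi and 13794 in shCaf1. The log2 differences ran between -0.10 and 3.43 in shMiwi (median 1.78) and between 0.29 and 3.82 in shCaf1 (median 2.31), with SEs between 2.02 and 3.47. The median over all probe sets was -0.20 in shMiwi and -0.25 in shCaf1. Tnp2 had the largest difference in both groups, 3.43 in shMiwi (SE 3.38, limma adjusted p = 0.448) and 3.82 in shCaf1 (SE 3.38, limma adjusted p = 0.401). The 2 comparisons share the control arrays. All 4 shRNA arrays lay between control replicate 1 and the higher control replicate 2 on 8 of 8 probe sets, as they did on 10.1% of all.

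The direction against control turned on which control array was used. Without control replicate 1, limma called all 8 probe sets lower in both shRNA groups (44.7% and 44.6% of all probe sets were lower for shMiwi and shCaf1), with log2 differences between -3.64 for Prm2 and -1.89 for Tnp1 in shMiwi and between -3.17 for Prm2 and -1.48 for Tnp1 and Prm3 in shCaf1. Without control replicate 2, all 8 were called higher (38.5% and 37.7% of all were higher), by log2 differences between 3.13 and 8.86 in shMiwi and between 3.51 and 9.25 in shCaf1. In these fits the lone control array is assumed to vary like the other groups. On the hybridization control scale all 8 probe sets were above both controls on all 4 shRNA arrays, as were 94.5% of all probe sets. Prm3, Tnp2 and both Tnp1 probe sets then passed limma as higher in both groups (94% of all passed as higher in shMiwi and 91.5% in shCaf1). On that scale the median log2 difference was 5.55 for the 8 probe sets against 3.59 for all in shMiwi, and 5.71 against 3.16 in shCaf1. Control replicate 1 read 26.9 there on the third Prm1 probe set and between 0.2 and 2 on the others. The latter values lie below the constant of 16 added before log2, which thus sets most of their log2 value. The part of this floor in the sizes and calls on that scale was not tested.

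Other genes of the elongating spermatid were compared between the shRNA groups in the same fit. Of the 20 other elongating spermatid markers, 12 passed limma as lower in shMiwi than in shCaf1, where 3.52% of all probe sets did. A negative log2 difference was seen for 19 of 20, with a median of -0.59. On the scale of the hybridization controls the median was -0.19, with 4 lower (Spata18, Oaz3, Akap4 and Gapdhs) and 1 higher (Fam71b). Of all probe sets 0.951% passed as lower and 26.1% as higher on that scale, with a median of 0.39. As deposited, Spata18 was lower in shMiwi than in shCaf1 by 1.23 (SE 0.11, limma adjusted p = 0.00125). Oaz3, an ornithine decarboxylase antizyme of spermatids, was lower by 1.01 (limma adjusted p = 0.00188), and Akap4, a fibrous sheath protein, by 0.98 (limma adjusted p = 0.00297). Tsga8, a nuclear protein of haploid spermatids, gave -0.21 and did not pass (limma adjusted p = 0.23). These genes were named after their values were seen. Of 10 round spermatid markers 2 passed as lower (Acrv1 and Actl9, median -0.35), where 3.52% of all did. Of 10 pachytene spermatocyte markers 1 passed as lower, Piwil1 itself, and 1 as higher, Tex12 (median 0.09), where 3.52% and 3.81% of all did. On the hybridization scale the round spermatid median was 0.05, with 1 lower (Actl9) and 1 higher (Tex101). The pachytene median there was 0.48, with 1 lower (Piwil1) and 5 higher.

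Genes of nuclear condensation include linker histones, chaperones and kinases of the histone-to-protamine exchange. Of 22 measured, 3 passed as lower in shMiwi than in shCaf1, where 3.52% of all probe sets did, with a median log2 difference of -0.25. Tssk6, a kinase needed for sperm chromatin condensation, gave 7432 and 6632 in shMiwi, 11703 and 12883 in shCaf1, and 155.3 and 28019 in control. It was lower in shMiwi than in shCaf1 by 0.81 (SE 0.11, limma adjusted p = 0.00725). Camk4, the kinase that phosphorylates Prm2, was lower by 0.64 (SE 0.14, limma adjusted p = 0.0329), and Phf7, a reader and ubiquitin ligase of histones, by 0.48 (SE 0.11, limma adjusted p = 0.0394). On the hybridization scale these 3 were at -0.41, -0.25 and -0.08 and none passed limma (adjusted p = 0.0781, 0.42 and 0.755). There 4 of the 22 passed as higher (H1f6, Brdt, Top2b and Kdm3a, named for passing), where 26.1% of all probe sets did. None passed as lower, where 0.951% of all did. Against control 7 of the 22 passed as higher and 2 as lower (H1f6 and Epc1) in each shRNA group, where 16.9% and 15.5% of all probe sets passed as higher and 26.4% and 26% as lower in shMiwi and shCaf1. On the hybridization scale all 22 passed as higher in both, as did 94% and 91.5% of all.

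Among 15 transcription regulators of spermatid genes, 1 passed as lower and 1 as higher in shMiwi against shCaf1 (median -0.08), where 3.52% and 3.81% of all probe sets did. On the hybridization scale 4 passed as higher (Sox30, Taf7l, Creb1 and Crebbp) and 0 as lower, where 26.1% and 0.951% of all did. The median there was 0.32 against 0.39 over all probe sets. Fhl5, the testis coactivator of CREM, gave 8221 and 9076 in shMiwi, 12058 and 12344 in shCaf1, and 29.7 and 1433 in control. As deposited it was lower in shMiwi than in shCaf1 by 0.50 (SE 0.10, limma adjusted p = 0.0274), with -0.10 on the hybridization scale. Crebbp, the general coactivator CBP, was higher in shMiwi than in shCaf1 by 0.56 as deposited (SE 0.13, limma adjusted p = 0.0377), with 0.95 on the hybridization scale. Crem itself, named after its values were seen, gave 3327 and 3566 in shMiwi and 3855 and 3432 in shCaf1, with overlapping groups (-0.08, limma adjusted p = 0.739). In control Crem gave 524.2 and 15.2.

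Among 35 genes listed for storage, polyadenylation and translation of protamine messenger RNA, 1 passed as lower and 1 as higher in shMiwi, with a median of -0.0035, where 3.52% and 3.81% of all probe sets did. On the hybridization scale 12 passed as higher and 1 as lower (26.1% and 0.951% of all), with a median of 0.39 against 0.39 over all probe sets. The lower one on both scales was Piwil1, the target of the shMiwi hairpin. It was lower in shMiwi than in shCaf1 by 1.14 on the log2 scale as deposited (SE 0.09, limma adjusted p = 0.00105). On the hybridization scale its log2 difference was -0.74 (SE 0.17, limma adjusted p = 0.00107). The higher one as deposited was Gtf2a1l, which is a germ cell form of the general transcription factor TFIIA rather than a translation factor. It gave 0.50 as deposited (SE 0.11, limma adjusted p = 0.0355) and 0.90 on the hybridization scale. Ybx2, the Y-box protein that stores protamine messenger RNA (named after its values were seen), gave 3115 and 1513 in shMiwi, 2504 and 2000 in shCaf1, and 573.0 and 3814 in control, and the shRNA groups overlapped.

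**Figure D5:**
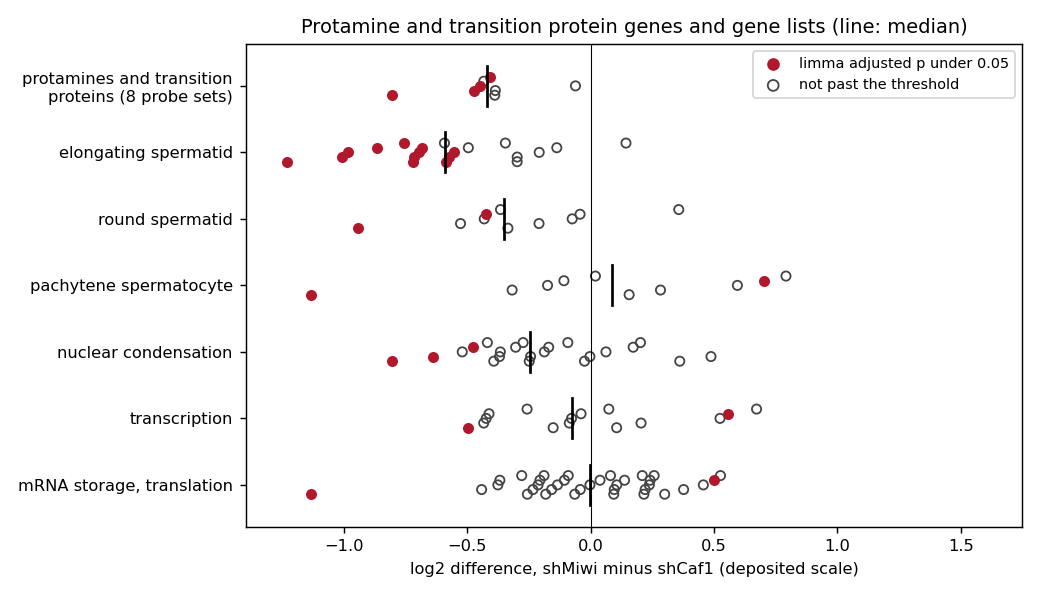
Log2 difference of shMiwi minus shCaf1 on the deposited scale for the 8 probe sets and for the genes of 6 lists, 1 point per probe set or gene, filled where limma's adjusted p was under 0.05, with the median as a vertical line. The 8 probe sets (median -0.42) and the 20 elongating spermatid markers (median -0.59) lie to the left of 0, apart from 1 marker.

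The genes with the pattern most like the 5 were sought by the distance between profiles of log2 signal over the 6 arrays. Limd2 was closest at a distance of 0.42, with 13894 and 13976 in shMiwi, 17612 and 19997 in shCaf1, and 93.2 and 100747 in control. Gm5617, 1700042G07Rik, Tent5c, a poly(A) polymerase, and Map1lc3a, an autophagy protein, followed at distances of 0.83, 0.89, 0.93 and 0.97. The 5 genes themselves lay between 1.16 and 3.21 from their own mean, and 279 of 14293 other genes lay closer than the farthest of them. The probe set used here for Prm1 (1415955_x_at) read 2191 on control replicate 1, against 66.1 and 165.1 for the other Prm1 probe sets. Distances over the 6 arrays also include the wide gap between the control arrays. The part of that probe set and of that gap in these distances was not tested. Over the 4 shRNA arrays alone the closest were Letm2, Ttll8, Dppa4, Otog and Slc25a39, at distances between 0.018 and 0.033, but 2785 of 14293 genes lay closer than the farthest of the 5.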

How the data were processed

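Total RNA was labelled with an Affymetrix 3' IVT kit, per the labels' protocols, and each deposited value is a linear signal intensity for 1 probe set on 1 array; the submitters' processing notes name MAS5, and the authors' scaling was read from the values (2% trimmed mean of 500). The genome build and scanner files are not given in the sources used here. Sample titles gave groups and replicates. A constant of 16 was added before log2. Without the 64 control probe sets, those above the 40th percentile of the mean over all arrays were kept. Differences were tested in R 4.3.3 with limma 3.58.1 (eBayes with a trend, Benjamini-Hochberg over 27022 probe sets): 6 arrays and 3 residual degrees of freedom against control, 4 shRNA arrays and 2 degrees of freedom for shMiwi against shCaf1, since the control arrays varied more. Alternatives were other added constants, no filter, quantile, median and hybridization scaling, no trend, other sets of arrays, a replicate block, a stricter threshold and each array left out. For hybridization scaling each array was divided by the geometric mean of 18 bioB, bioC, bioD and cre probe sets. For a gene of a list, a ratio to Prm1 or a profile distance, the probe set with the highest mean log2 was used. In the ratios and distances this was 1415955_x_at for Prm1, whose mean log2 over all arrays is the highest of the Prm1 probe sets. Percentiles, ratios, distances and motifs were computed in Python 3.11.15. The limma fit was tested on simulated data. The rule for named genes took all probe sets of the 5 genes, up to 4 passing genes of each list by their size in shMiwi against shCaf1, and the 5 closest profiles. Members and lists were chosen with earlier results of these data known. RefSeq gave the same symbols for the gene identifiers of the 5 genes.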

Additional observations from a re-analysis of the deposited data

How the results depend on the processing

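For shMiwi against shCaf1, limma called 1981 of 27022 probe sets (1030 higher and 951 lower), 4 of them among the 8 of protamine and transition protein genes. The number among the 8 stayed at 4 with 1 or 64 added before log2. It was 1 with no filter on low signal (568 in all), 1 with quantile normalization (884 higher and 1001 lower), 2 with arrays centred on the median (577 and 1097) and 0 with hybridization control scaling (7315 in all, 7058 and 257). Without an intensity trend it was 0 of 15 (4 of the 8 and 5487 in all at an unadjusted p under 0.05), with all 6 arrays 0 of 0 (0 of the 8 and 264 in all at an unadjusted p under 0.05), and at an adjusted p under 0.01 it was 0. The replicate block, a term for the replicate number, gave 7 of 5458. The labels tie the numbers to no shared animal or day, and the deviations of same-numbered shMiwi and shCaf1 arrays correlated at r = 0.18 over probe sets. Leaving out each array gave between 0 and 5 of the 8, and between 276 and 3878 in all. On the hybridization scale the sign turned for the third Prm1 probe set (0.0112), the dim Tnp1 probe set (0.33) and Tnp2 (0.00886). The dim Tnp1 probe set ran between -0.28 and 0.16 over the fits without an array.

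Against control, 0 of the 8 were called under each alternative other than hybridization scaling and the fits without a control array. In total 11687 were called in shMiwi (4559 higher and 7128 lower) and 11205 in shCaf1 (4186 and 7019). These became 18076 and 17244 with no filter, 6632 and 5941 with only the 4 arrays compared, and 25419 (25395 and 24) and 24726 (24717 and 9) with hybridization scaling, where 4 and 4 of the 8 passed. Quantile normalization split the calls into 5529 and 4022 for shMiwi and 5278 and 3806 for shCaf1, and median centring into 5801 and 5858, and 5653 and 5459. The replicate block gave 10400 and 9851 calls and 0 of the 8. Leaving out arrays gave between 0 and 22700 for shMiwi and between 0 and 22675 for shCaf1 (the 0 arose without either array of the shRNA group, with at least 8750 probe sets at an unadjusted p under 0.05), and between 0 and 8 of the 8. The third Prm1 probe set turned in shMiwi to 1.80 with quantile normalization, 0.38 with median centring and 4.96 with hybridization scaling. Over the fits without an array, log2 differences in shMiwi ran for Prm1 from -3.06 to 8.11, -3.25 to 6.80 and -3.32 to 3.13 on its probe sets, for Prm2 from -3.64 to 7.23, for Prm3 from -2.29 to 5.39, for Tnp1 from -1.89 to 8.66 and -2.06 to 4.39, and for Tnp2 from -2.001 to 8.86. In shCaf1 they ran for Prm1 from -2.61 to 8.55, -2.82 to 7.23 and -2.94 to 3.51, for Prm2 from -3.17 to 7.71, for Prm3 from -1.48 to 6.20, for Tnp1 from -1.48 to 9.07 and -1.99 to 4.45, and for Tnp2 from -1.61 to 9.25. The lower ends are without control replicate 1 and the upper ends without control replicate 2. Apart from the effect of fewer arrays, the causes were not tested.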
